A study of Homo sapiens with 12 samples.

Results

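The effect of CBP300, labelled an EP300 inhibitor, was examined in HMEC-1 cells that also received oncostatin M. HMEC-1 is an immortalised line of human dermal microvascular endothelial cells, and oncostatin M is a cytokine of the interleukin-6 family. Genes were included when they reached 1 TPM (a transcript level corrected for gene length and scaled to the library total) in at least 3 of the 6 libraries compared, which left 15676 of the 60623 deposited genes. The series holds 12 messenger RNA libraries in 4 groups of 3. The OSM group received recombinant oncostatin M alone. The CBP300 group received the cytokine with 10 µg/mL CBP300. The protocol gives the cytokine dose as 10 ng/mL and the sample labels as 10 µg/mL, so the dose is uncertain. The other 2 groups are a control (CT) given fresh medium alone and oncostatin M with 30 µg/mL PF9363, labelled here by the compound. All groups were sampled at 48 h and were grown in the same medium, with epidermal growth factor, hydrocortisone and serum. No group received CBP300 without the cytokine, and no vehicle is named. The labels do not say that replicates were separate cultures, so p-values reflect the variation among these libraries alone.

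EP300 and its paralogue CREBBP are large co-activators that acetylate histones and transcription factors at enhancers and promoters, and acetylation of lysine 27 on histone H3 is their best known mark. Bromodomain proteins bind acetylated histones and help RNA polymerase II into elongation. Oncostatin M binds OSMR or LIFR paired with IL6ST (gp130) and acts through Janus kinases, STAT3 and the ERK pathway. In endothelium it is known for inducing adhesion molecules, chemokines and acute phase genes.

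Recovered read totals, in units of 1e6 reads, were 15.76 to 20.82 per OSM library and 13.43, 21.08 and 73.34 in the CBP300 libraries. Mitochondrially encoded genes took 17.31% to 18.13% of TPM in the 6 libraries. The mean absolute log2 difference between 2 libraries was 0.172 to 0.228 within OSM, 0.149 to 0.19 within CBP300 and 0.439 to 0.535 between the groups. The endothelial label was matched by the markers. Of 12 endothelial markers listed, all passed the filter, and their summed level was 1466 to 1511 TPM in OSM libraries and 687 to 732 TPM in CBP300 libraries. Of 15 blood cell markers, 2 passed the filter, CD14 and HBB, and the leukocyte marker PTPRC averaged 0.0284 TPM in OSM and 0.00188 in CBP300. Of 10 epithelial markers, 3 keratins passed, and the summed level of the 10 was 769.9 to 838 TPM in OSM and 528 to 537 TPM in CBP300, most of it KRT18 (789 and 517 TPM), while CDH1 was at 0 TPM in all 6 libraries. Of 11 fibroblast and mural markers, 4 passed, and DCN was at 0 TPM in all 6. The 11 summed to 27.6 to 29.7 TPM in OSM and 20.5 to 22.4 TPM in CBP300. Of 4 lymphatic markers, 2 passed, and PROX1 averaged 0.0283 TPM in OSM. The 4 summed to 149 to 159 TPM in OSM and 132 to 134 TPM in CBP300.

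The largest changes with CBP300 were falls. EDN1, which encodes the vasoconstrictor endothelin-1, fell from 155 to 4.34 TPM. VWF, the clotting factor stored in endothelial granules, fell below 1 TPM. FOS, an AP-1 subunit, rose from 8.1 to 36.4 TPM. By limma with Benjamini-Hochberg adjustment, 9971 genes (63.6%) passed at an adjusted p under 0.05, of which 6294 (40.2% of those tested) were higher and 3677 (23.5%) lower. A fit of all 12 libraries gave 2403 higher and 2205 lower genes, and its results stand beside many of those below. Its log2 changes are the same, since each group mean is unchanged. Only the spread behind its p-values differs, as it also draws on the control and PF9363 libraries. At least 2-fold changes were found in 586 higher genes (3.74%) and 630 lower genes (4.02%). At least 4-fold changes were found in 29 higher and 97 lower genes, and at least 8-fold changes in 2 higher and 20 lower genes. The 3 CBP300 values lay wholly above the 3 OSM values in 43.4% of genes and wholly below in 26.0%. All log2 changes are on the log2(TPM + 1) scale, CBP300 with OSM minus OSM, which understates changes of low genes. In bulk libraries, less RNA per cell and fewer cells of a type cannot be told apart.

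The split between higher and lower genes depended on scaling. The median log2 change over all tested genes was 0.13, and the list medians below should be read beside it. Each gene was tested against a change of 0, so the calls and counts of the main fit are not adjusted for this median. Median-of-ratios scaling moved this median to -0.0023 and gave 4893 higher and 4906 lower genes. Quantile scaling gave 5242 and 4540. The change also followed base composition. Among genes with a mean of at least 5 TPM, 82.5% of those under 40% GC were higher and 3.12% lower, whereas 14.3% of those at 60% GC or more were higher and 56.0% lower. The median log2 change ran from 0.58 in the first class to -0.25 in the last. The slope of a library's log2 values on GC content, against the mean of all 12 libraries, was -0.367 to -0.305 per 10 percentage points in CBP300 and -0.113 to 0.0122 in OSM. In the control the slope was 0.631, 0.235 and 0.303, and with PF9363 it was -0.164, -0.00898 and 0.121. The part of GC content in the changes was not tested. For this reason counts are also given after a smooth trend on GC content and gene length was removed from each library, which left 6378 higher and 2847 lower genes.

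**Figure D1:**
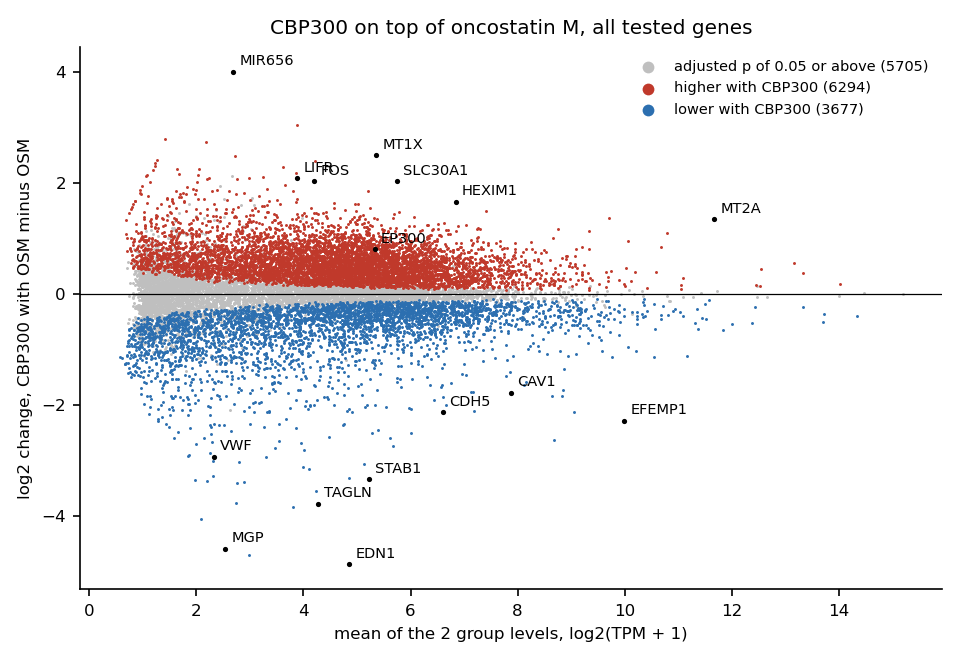
Each point is 1 of 15676 tested genes, with the mean of the 2 group levels in log2(TPM + 1) on the x axis and the log2 change (CBP300 with OSM minus OSM) on the y axis. Red and blue points passed an adjusted p of 0.05, and the points reach further down (EDN1 at -4.87) than up, where MIR656 at 4.01 is a short gene with few reads.

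**Figure D2:**
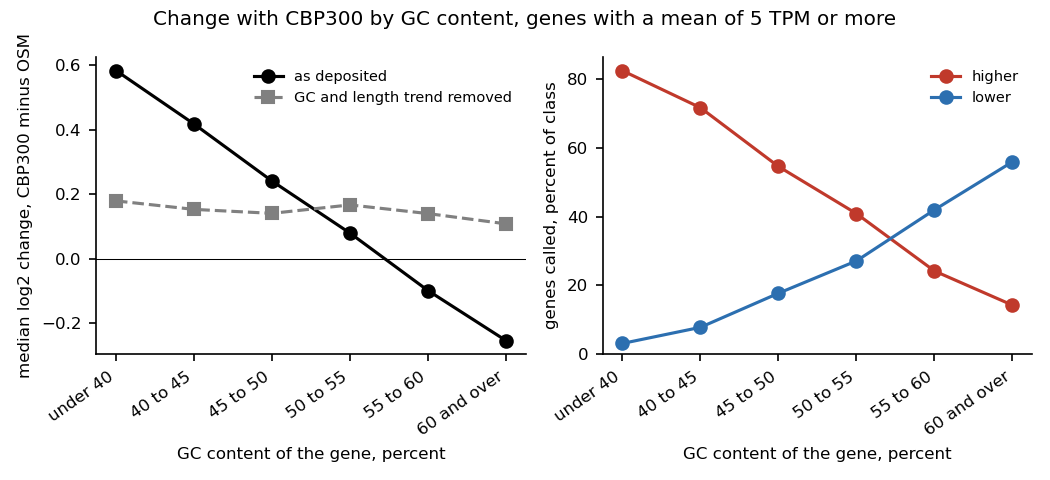
The left panel gives the median log2 change in 6 classes of GC content, before and after the trend on GC content and length was removed. The right panel gives the percent of each class called higher or lower, from 82.5% higher under 40% GC to 56.0% lower at 60% GC or more.

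EDN1 (chr6:12290363-12297194, plus strand, GRCh38) measured 165, 148 and 152 TPM in the OSM libraries and 4.44, 3.86 and 4.73 TPM in the CBP300 libraries (log2 change -4.87 ± 0.077 (SE), adjusted p = 2e-07). The groups were far apart, and the CBP300 values also lay below the 44.4, 119.6 and 99.7 TPM of the control. VWF (chr12:5948874-6124770, minus strand) measured 12.7, 13.2 and 12.7 TPM with oncostatin M and 0.733, 0.949 and 0.795 TPM with CBP300 (log2 change -2.93 ± 0.093 (SE), adjusted p = 1.57e-06). Its control values were 6.64, 6.97 and 6.28 TPM, so that the CBP300 libraries were again the lowest of these 3 groups. FOS (chr14:75278774-75282230, plus strand) measured 7.7, 8.31 and 8.28 TPM with oncostatin M and 36.8, 35.6 and 36.9 TPM with CBP300 (log2 change 2.04 ± 0.056 (SE), adjusted p = 8.54e-07). No FOS value of the OSM group came near those of CBP300, and the control stood at 0.948, 2.35 and 2.1 TPM. LIPG, the endothelial lipase that acts on high-density lipoprotein, measured 0.304, 0.995 and 0.709 TPM in the control, 54.8, 48.4 and 46.9 TPM with oncostatin M and 4.39, 5.21 and 4.65 TPM with CBP300 (log2 change -3.15 ± 0.084 (SE), adjusted p = 7.85e-07). Its CBP300 values lay between those of the other groups and overlapped neither.

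**Figure D3:**
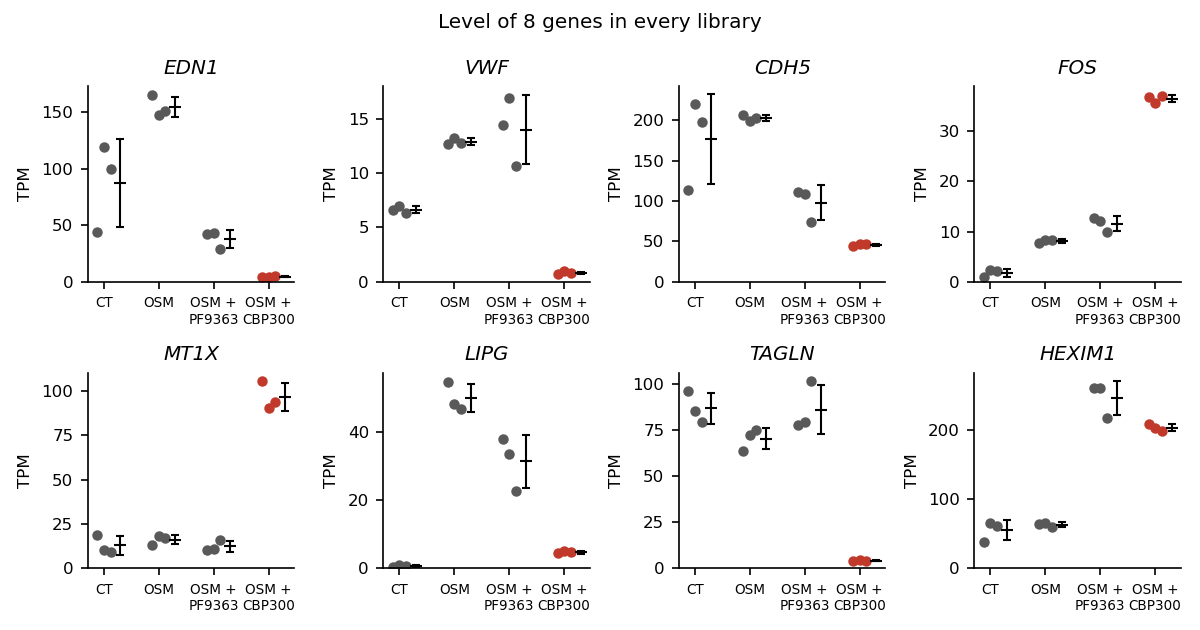
Each panel gives the TPM of 1 gene in all 12 libraries, with the mean and SD of each group of 3 beside the points. The red CBP300 points lie below every other library for EDN1, VWF, CDH5 and TAGLN and above every other library for FOS and MT1X.

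The sequence just upstream of the EDN1 start is shown because EDN1 had the largest fall among genes of at least 5 TPM. The 160 bases before its most downstream RefSeq start (chr6:12290201-12290360, plus strand, GRCh38.p14) read 5′ to 3′ as follows, with the letters AGATAA (read on either strand), a GATA motif, in capitals.
EDN1: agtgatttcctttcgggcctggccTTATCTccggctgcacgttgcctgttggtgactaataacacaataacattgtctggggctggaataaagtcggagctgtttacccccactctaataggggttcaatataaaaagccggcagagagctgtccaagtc
This motif was found in 1 place in the 250 bases before that start, and in none before the other 2 RefSeq starts of EDN1. At least 1 match was present in 9.17% of 35116 promoter windows of this length.

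The 12 lowest log2 changes among genes of at least 5 TPM all belonged to protein-coding genes. MGP, a matrix protein that inhibits calcification, measured 26.3, 28.9 and 27.3 TPM in OSM and 0.245, 0.125 and 0.191 in CBP300 (log2 change -4.59 ± 0.089 (SE), adjusted p = 2.88e-07). TAGLN, the actin-binding protein transgelin, measured 63.8, 72.6 and 74.8 TPM and 4.19, 4.61 and 3.87 TPM (log2 change -3.77 ± 0.083 (SE), adjusted p = 3.89e-07). STAB1, a scavenger receptor of sinusoidal endothelium, measured 115, 117 and 119 TPM and 9.96, 11.5 and 10.8 TPM (log2 change -3.33 ± 0.059 (SE), adjusted p = 2e-07). In these genes each group was tight and the gap between groups was many times the spread. SULT1E1, which sulphates oestrogens, fell from 11.5 to 0.231 TPM (-3.35). RGS4, which limits G protein signalling, fell from 63.5 to 4.52 TPM (-3.54), and AK5, an adenylate kinase, from 23.7 to 0.82 TPM (-3.77). PALMD, SPOCD1, TM4SF18 and GALNT15 also fell, with log2 changes of -3.41, -3.83, -3.38 and -3.36. HBB, a haemoglobin chain, stood apart in its spread. It measured 48.8, 1.72 and 132 TPM in OSM, from 376, 11 and 799 reads. In CBP300 it measured 0, 0.0396 and 0 TPM, from 0, 1 and 0 reads. Its log2 change of -4.70 thus rests on OSM values that differ widely among themselves (adjusted p = 0.0135 by limma). By voom, a fit to the recovered reads, HBB did not pass (adjusted p = 0.0932). In all, 31 of the 15676 tested genes (23 protein-coding) averaged at least 5 TPM in OSM and under 1 TPM in CBP300, with no overlap between groups. The reverse, at least 5 TPM in CBP300 and under 1 TPM in OSM, held for 7 genes (0 protein-coding).

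The 12 highest changes by the same rule were of another kind. Of these, 8 were small RNA genes of 67 to 299 bases with 0 to 85 reads per library, such as MIR656 with 1, 0 and 0 reads in OSM and 13, 34 and 5 in CBP300. Reads of a poly(A) library on such genes do not measure the mature small RNA. One more was a pseudogene, BLVRBP1, and 3 were protein-coding, MT1X, POMK and KLF5. Protein-coding genes were therefore ranked separately, after these values were seen. The zinc-binding protein gene MT1X led, followed by POMK, a kinase that phosphorylates a sugar chain of dystroglycan, which rose from 4.58 to 25.9 TPM (2.29). KLF5, a Krüppel-like transcription factor, rose from 5.81 to 30.1 TPM (2.19). LIFR, a receptor chain for leukemia inhibitory factor and oncostatin M, measured 7.34, 5.97 and 5.08 TPM in OSM and 30.1, 31.3 and 26.7 TPM in CBP300 (log2 change 2.10 ± 0.12 (SE), adjusted p = 2.01e-05), with no overlap. PAG1, an adaptor that recruits the kinase CSK, rose from 1.07 to 6.63 TPM (1.88). KLHL15, CLGN, NCR3LG1 and FAM222A completed the 12, with log2 changes of 1.87, 1.87, 1.77 and 1.70.

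Genes of endothelial identity were lower almost throughout. Of 29 measured surface and identity genes, 25 were lower and 1 higher, with a median log2 change of -1.30 against 0.13 over all genes. 17 of them fell at least 2-fold. After the GC and length trend (below, the trend) was removed, 24 were lower and 2 higher. CDH5, the cadherin of endothelial junctions, measured 206, 198 and 203 TPM in OSM and 44.7, 46.2 and 46.6 in CBP300 (log2 change -2.12 ± 0.038 (SE), adjusted p = 2e-07). PECAM1, another junction protein, fell from 115 to 46.2 TPM (-1.30). ROBO4, a guidance receptor, fell from 120.1 to 19.1 TPM (-2.59), and EMCN, a sialomucin of capillaries and veins, from 11.8 to 0.774 TPM (-2.86). PLVAP, which forms the diaphragms of fenestrae, fell from 28.2 to 3.25 TPM (-2.78), and CAV1, the coat protein of caveolae, from 433 to 126 TPM (-1.77). ENG, a co-receptor for BMP9, fell from 736 to 290.3 TPM (-1.34). The VEGF receptor KDR did not pass, with 54.5 and 54.2 TPM, nor did THBD and S1PR1. With the trend removed all 3 passed, KDR and S1PR1 as lower (-0.21 and -0.16) and THBD as higher (0.20), and S1PR1 also passed as lower under median-of-ratios scaling (-0.24). FLT1, a decoy receptor for VEGF, was the 1 gene of the list that was higher, 11.3 to 22 TPM (0.91).

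Endothelial transcription factors changed by less. Of 27 measured, 17 were lower and 5 higher (median log2 change -0.34), 15 and 6 after the trend was removed, and 6 and 2 in the fit of all 12 libraries. SOX18, which acts in vessel and lymphatic development, fell from 33.9 to 7.75 TPM (-2.01), and LYL1, a basic helix-loop-helix factor, from 18.2 to 7.79 TPM (-1.12). ERG and FLI1, ETS factors that maintain endothelial identity, fell from 88.8 to 59.1 TPM (-0.58) and from 62.1 to 42.9 TPM (-0.52), without passing in the fit of all 12 libraries (adjusted p of 0.0534 and 0.0967). KLF2, induced by laminar flow, moved the other way. It measured 74.4, 79.5 and 76.4 TPM in OSM and 165, 169 and 179 in CBP300 (log2 change 1.15 ± 0.046 (SE), adjusted p = 4.1e-06), beside 172, 203 and 179 TPM in the control. Its relative KLF4 rose from 7.47 to 15.1 TPM (0.92). Of 15 vasoactive genes, 9 were lower and 5 higher (median -0.21), but 7 and 7 after the trend was removed (median 0.08), and 6 and 2 in the fit of all 12 libraries. Apart from EDN1, the lower ones included NOS3, the endothelial nitric oxide synthase (8.57 to 3.44 TPM (-1.11)), and RNASE1, an extracellular ribonuclease (71.9 to 17.4 TPM (-2.00)). Of 15 coagulation genes, 9 were lower and 3 higher, or 8 and 1 in the fit of all 12 libraries. MMRN1, a carrier of factor V, fell from 14.6 to 0.598 TPM (-3.28).

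Notch and tip cell genes were mixed, with 9 of 19 lower and 6 higher (median -0.14). After the trend was removed the balance turned to 7 lower and 9 higher (median 0.25), and the fit of all 12 libraries gave 8 and 3. PDGFB, the growth factor that recruits pericytes, measured 96.1, 101 and 103 TPM in OSM and 11, 11 and 11.2 in CBP300 (log2 change -3.07 ± 0.046 (SE), adjusted p = 2e-07). ESM1, a proteoglycan of tip cells, fell from 49.99 to 13.5 TPM (-1.82), and NOTCH4, an endothelial Notch receptor, from 11.5 to 3.39 TPM (-1.51). NOTCH2 rose from 26.1 to 47.9 TPM (0.85) and LFNG, a glycosyltransferase that modifies Notch, from 4.2 to 9.64 TPM (1.03), but NOTCH2 did not pass in the fit of all 12 libraries (adjusted p = 0.0631 by limma). DLL4, the main endothelial Notch ligand, was 7.03 and 7.07 TPM and did not pass, though it passed as higher with the trend removed (0.25).

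Genes of the extracellular matrix and of contraction were mostly lower. Of 21 matrix glycoproteins and proteoglycans, 16 were lower, 10 of them at least 2-fold, and 3 higher (median -0.82). EFEMP1, a fibulin, measured 2377, 2189 and 2125 TPM in OSM and 466, 450.4 and 458 in CBP300 (log2 change -2.28 ± 0.046 (SE), adjusted p = 2.96e-07). BGN, a small leucine-rich proteoglycan, fell from 1019 to 164 TPM (-2.62), FN1, which encodes fibronectin, from 755 to 210.1 TPM (-1.84), and THBS1, an inhibitor of vessel growth, from 856 to 238 TPM (-1.84). NID2, a basement membrane nidogen, rose from 4.81 to 9.53 TPM (0.87). Of 16 collagen genes, 13 were lower and 0 higher (median -0.47). COL8A1 fell from 203 to 49.8 TPM (-2.00), COL1A1 from 35.8 to 8.23 TPM (-2.00), and the basement membrane chain COL4A1 from 82.8 to 62.1 TPM (-0.41), without passing in the fit of all 12 libraries (adjusted p = 0.283). After the trend was removed, 15 matrix glycoprotein genes and 11 collagen genes were lower. MMP2, a gelatinase, fell from 61.5 to 13.3 TPM (-2.13), while TIMP1, an inhibitor of such proteases, rose from 1210.3 to 2605 TPM (1.11).

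Of 24 contractile genes and targets of the factors SRF and YAP, 17 were lower and 5 higher (median -0.51), and 15 and 7 after the trend was removed. The fit of all 12 libraries gave 12 lower and 0 higher. Beside TAGLN, ACTA2, the smooth muscle actin, fell from 5.52 to 1.09 TPM (-1.64), MYL9, a myosin light chain, from 132 to 46 TPM (-1.498), and ANKRD1, a YAP target, from 365 to 131 TPM (-1.47). AMOTL2 and LATS2, which restrain YAP, rose from 69.1 to 121 TPM (0.80) and from 53.6 to 85.1 TPM (0.66), but neither passed in the fit of all 12 libraries (adjusted p = 0.139 for both). Of 18 genes of the TGF-beta family and of endothelial-to-mesenchymal transition, 8 were lower and 3 higher (median -0.14). The 17 BMP and SMAD response genes were mixed, with 7 lower and 6 higher (median -0.22). In the fit of all 12 libraries these counts were 5 and 1, and 6 and 1. Among ligands of the TGF-beta family, INHBA, an activin subunit, fell from 13 to 0.745 TPM (-3.003), TGFB2 from 18 to 5.24 TPM (-1.60) and BMP4 from 58.2 to 13.2 TPM (-2.06). The receptor TGFBR2 fell from 303 to 159 TPM (-0.92), with an adjusted p of 0.0745 in the fit of all 12 libraries, while TGFBR1 rose from 11.2 to 25.1 TPM (1.09). ACVRL1, the endothelial receptor for BMP9, fell from 166 to 43.5 TPM (-1.90). Of its targets, ID3 fell from 717 to 331 TPM (-1.11), and ID1 was 619 and 673 TPM, a log2 change of 0.12 that reversed under median-of-ratios scaling and did not pass in the fit of all 12 libraries or without CBP300 replicate 1 or 3.

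Chemokines and inflammatory cytokines were lower. Of 8 measured chemokines, 7 were lower and 0 higher (median -1.01), and of 7 cytokines, 6 were lower and 0 higher (median -1.06). CXCL12, which attracts leukocytes and stem cells through CXCR4, measured 63.4, 58 and 57.9 TPM in OSM and 10.5, 10.8 and 11.6 in CBP300 (log2 change -2.34 ± 0.062 (SE), adjusted p = 7.58e-07). CXCL2, a neutrophil attractant, fell from 44.5 to 12.3 TPM (-1.78), and TNFSF10, which encodes TRAIL, from 26.5 to 5.62 TPM (-2.05). IL6 fell from 10.4 to 3.96 TPM (-1.21), CSF1, the macrophage growth factor, from 18.4 to 6.1 TPM (-1.45), and CCL2, a monocyte attractant, from 11.7 to 5.29 TPM (-1.01). After the trend was removed, the number of lower chemokines was 5. The acute phase and complement genes had 7 of 10 lower and 3 higher. PTX3, a pentraxin, fell from 480.1 to 236 TPM (-1.02) and C1R, a protease of complement, from 60.7 to 25.1 TPM (-1.24). The higher ones, CD46, CD55 and CD59, encode complement inhibitors of the cell surface, and CD46 and CD55 did not pass after the trend was removed (0.01 and -0.05) or in the fit of all 12 libraries (adjusted p of 0.365 and 0.382).

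Other inflammatory lists were mixed. Of 20 NF-kappaB genes, 9 were lower and 9 higher. This split became 10 and 4 under median-of-ratios scaling, 5 and 11 after the trend was removed, and 4 and 4 in the fit of all 12 libraries. NFKBIZ, a nuclear regulator of NF-kappaB, rose from 8.73 to 23.4 TPM (1.33), and SOD2, the mitochondrial superoxide dismutase, from 17.8 to 39.2 TPM (1.10). Of 34 interferon-stimulated genes, 10 were lower and 10 higher, with GBP2, a guanylate-binding protein, at 6.97 to 1.13 TPM (-1.91) and IFIT2 at 6.4 to 12.2 TPM (0.83). The fit of all 12 libraries gave 7 lower and 3 higher, and IFIT2 did not pass there (adjusted p = 0.0519). Of 10 leukocyte adhesion genes, 7 were lower and 3 higher, 7 and 1 under median-of-ratios scaling and 5 and 0 in the fit of all 12 libraries. ICAM2 fell from 63.4 to 17.2 TPM (-1.82). ICAM1, the inducible ligand of leukocyte integrins, was 85.4, 88.2 and 87.6 TPM in OSM and 97.2, 100.3 and 102 in CBP300. Its log2 change of 0.19 passed here but not under median-of-ratios scaling or in the fit of all 12 libraries. That last fit draws on PF9363 values of ICAM1 that were irregular, as described at the end. Of 18 genes of MHC class I presentation, 10 were lower and 2 higher, a split that became 8 and 8 after the trend was removed, 15 and 2 under median-of-ratios scaling and 6 and 0 in the fit of all 12 libraries.

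Of 17 receptor chains, ligands and kinases of the oncostatin M system, 8 were higher and 4 lower, or 47.1% and 23.5%, near the shares of all genes, and their median of 0.10 was near the 0.13 of all genes. The counts were 7 and 8 under median-of-ratios scaling (median -0.0028), 8 and 7 by voom, and 2 and 5 in the fit of all 12 libraries. OSMR rose from 141 to 201 TPM (0.51), the kinase JAK1 from 51.4 to 77.7 TPM (0.59) and STAT3 from 86.7 to 119 TPM (0.45), although OSMR and JAK1 did not pass in the fit of all 12 libraries (adjusted p of 0.123 and 0.0524). The shared chain IL6ST was at 197 to 265 TPM (0.44) and at a log2 change of -0.01 after the trend was removed, and it too did not pass in the fit of all 12 libraries. The lower genes were IL6, LIF and CLCF1, which are ligands, and STAT5A. OSM itself was not tested, with 0, 0.0959 and 0 TPM in OSM. Of 22 STAT3 targets and feedback genes, 10 were higher and 8 lower (median 0.05), 6 and 9 under median-of-ratios scaling, and 14 and 2 after the trend was removed. The fit of all 12 libraries gave 5 and 4. SOCS3, the feedback inhibitor of gp130, measured 5.47, 11.5 and 9.57 TPM in the control, 376, 379 and 391 in OSM and 453, 451 and 445 in CBP300 (log2 change 0.23 ± 0.031 (SE), adjusted p = 0.000486), and its call was lost under median-of-ratios scaling and in the fit of all 12 libraries. LRG1, a secreted glycoprotein, fell from 69.1 to 39.7 TPM (-0.78), and MCL1, a survival factor, rose from 433 to 950.3 TPM (1.13).

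HOX genes, which encode the positional homeodomain factors of 4 clusters, were lower in 25 of 28 measured and higher in 1 (median -0.93). 14 of them fell at least 2-fold. After the trend was removed, 21 were lower and 2 higher, and the median was -0.60. The fit of all 12 libraries gave 18 lower and 1 higher. By cluster, 8 of 10 HOXA genes, 6 of 7 HOXB genes, 5 of 5 HOXC genes and 6 of 6 HOXD genes were lower. HOXA11 measured 17.4, 19.96 and 19.9 TPM in OSM and 5.45, 5.66 and 4.06 in CBP300 (log2 change -1.74 ± 0.12 (SE), adjusted p = 3.71e-05). HOXD4 fell from 56.5 to 17.4 TPM (-1.65) and HOXD9 from 83.9 to 33.8 TPM (-1.29). Among HOXA neighbours, HOXA6 had a log2 change of -1.22 and HOXA7 of -0.18, a difference that was not tested. HOXA7 did not keep its direction when the trend was removed (0.15) and did not pass in the fit of all 12 libraries.

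**Figure D4:**
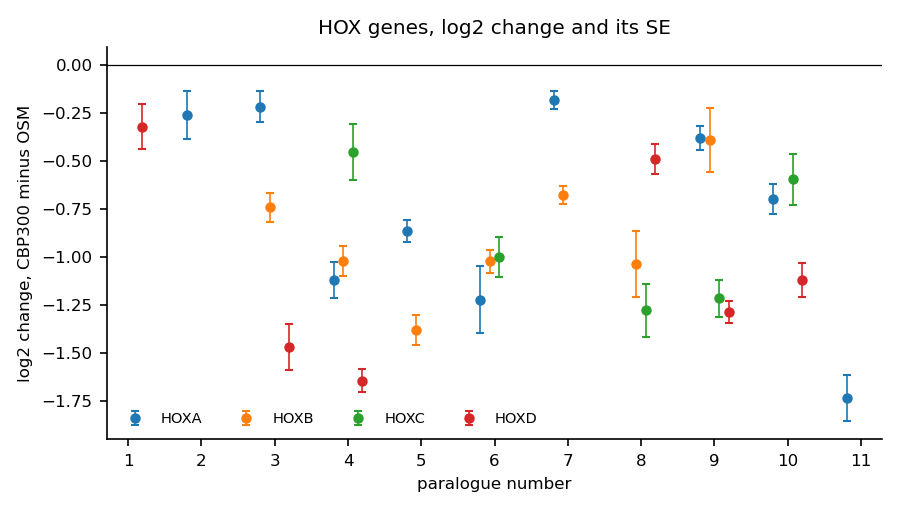
Each point is the log2 change (CBP300 with OSM minus OSM) of 1 HOX gene with its SE, placed by paralogue number and coloured by cluster, for the genes reported here. The lowest points are HOXA11 at -1.74 and HOXD4 at -1.65.

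Immediate early genes and feedback genes of the ERK pathway were mostly higher. Of 21 AP-1 and immediate early genes, 14 were higher and 3 lower (median 0.38), and 16 and 1 after the trend was removed. Beside FOS, EGR1, a zinc finger factor, measured 71.9, 75.3 and 80.5 TPM in OSM and 172, 189 and 179 in CBP300 (log2 change 1.24 ± 0.056 (SE), adjusted p = 6.72e-06). JUNB rose from 181 to 275 TPM (0.60) and JUND from 115 to 193 TPM (0.74). BTG2, an antiproliferative gene, and MYC were among the lower ones, at 94.6 to 54.2 TPM (-0.79) and 109.9 to 86 TPM (-0.35), but MYC passed neither with the trend removed nor in the fit of all 12 libraries. Of 16 ERK feedback genes, 12 were higher, 6 of them at least 2-fold, and 2 lower (median 0.67), against 7 and 1 in the fit of all 12 libraries. SPRY4 rose from 1.86 to 7.76 TPM (1.62), the ETS factor ETV5 from 20.1 to 55.8 TPM (1.43) and the phosphatase DUSP1 from 104 to 236 TPM (1.17). SPRY1, a relative of SPRY4 in the same feedback, fell from 23.4 to 6.11 TPM (-1.78).

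The transcripts of the acetylation machinery were mostly higher. Of 20 acetyltransferases and partners, 15 (75.0%) were higher and 3 lower (median 0.34), beside 47.0% and 24.7% of all protein-coding genes. Median-of-ratios scaling gave 12 and 3 (median 0.19), but the fit of all 12 libraries gave 3 and 3. The summed level of the 20 genes was 749 to 795 TPM in OSM and 764 to 801 TPM in CBP300. EP300 measured 33.4, 27.9 and 26.8 TPM in OSM and 49.1, 57.9 and 49.8 in CBP300 (log2 change 0.81 ± 0.10 (SE), adjusted p = 0.000319), and the groups did not overlap. CREBBP rose from 28.3 to 40.9 TPM (0.52). In the fit of all 12 libraries neither passed (adjusted p = 0.125 for both). KAT6A, a target of PF9363, rose from 13 to 25.4 TPM (0.92). KAT6B was at 4.16 to 6.1 TPM (0.46) and at a log2 change of 0.01 after the trend was removed, and it did not pass in the fit of all 12 libraries. CITED2, which binds EP300 and CREBBP, was the lowest of the list, 229.5 to 114 TPM (-1.004). Transcript levels say nothing of enzyme activity, which was not measured. Of 16 acetyl-lysine readers and elongation factors, 11 were higher and 2 lower (median 0.54), against 6 and 1 in the fit of all 12 libraries. HEXIM1, the inhibitor of the elongation kinase P-TEFb, measured 64.9, 65.3 and 59.9 TPM in OSM and 209.6, 203 and 199 in CBP300 (log2 change 1.67 ± 0.046 (SE), adjusted p = 9.15e-07). AFF4, a scaffold of the super elongation complex, rose from 40.3 to 107 TPM (1.40) and BRD2, a bromodomain protein, from 139 to 267 TPM (0.93), but AFF4 did not pass in the fit of all 12 libraries (adjusted p = 0.0528). Among the deacetylases, SIRT1 rose from 24.9 to 65.1 TPM (1.35) and HDAC7 fell from 70.7 to 38.9 TPM (-0.85). Of 18 histone genes, 11 were higher and 1 lower (8 and 4 under median-of-ratios scaling), with H2BC5 at 6.01 to 17.6 TPM (1.39). Counts of replication-dependent histone genes in poly(A) libraries cover only their polyadenylated transcripts, and near-identical copies can share reads.

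Metallothioneins, which bind zinc and other metals, and zinc transporters were higher in 9 of 13 measured genes and lower in 1 (median 0.57). MT1X measured 13.1, 18.3 and 17.1 TPM in OSM and 105, 90.0 and 93.7 in CBP300 (log2 change 2.51 ± 0.12 (SE), adjusted p = 9e-06), beside 19, 10.5 and 9.16 TPM in the control. Summed over 16 listed genes, the level was 7950.4, 4183 and 4393 TPM in control libraries 1, 2 and 3. It was 2223 to 2629.6 TPM in OSM and 6001 to 6315 TPM in CBP300. The CBP300 sums lay below that of control library 1 and above those of control libraries 2 and 3. MT2A measured 1796, 2156 and 2176 TPM and 5167, 5127 and 5286 TPM (log2 change 1.35 ± 0.072 (SE), adjusted p = 1.43e-05). SLC30A1, which exports zinc from the cell, measured 29.4, 23.7 and 23.3 TPM and 108, 109 and 104 TPM (log2 change 2.04 ± 0.087 (SE), adjusted p = 5.4e-06). None of these groups overlapped. MT1E rose from 285 to 651 TPM (1.18) and MT1G from 1.26 to 8.21 TPM (2.08). MT1L fell from 8.81 to 3.51 TPM (-1.13), while MT1M and MT1A did not pass, although MT1M passed as higher with the trend removed (0.65). The metallothionein genes are related copies on chromosome 16 with similar sequences, so the division of reads among them is uncertain.

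The promoters of 3 of these genes are shown because the genes were higher together and held the motif searched. Each line gives the 160 bases before the RefSeq start, 5′ to 3′, on GRCh38.p14. MT2A is at chr16:56608424-56608583, plus strand, MT1X at chr16:56682310-56682469, plus strand and SLC30A1 at chr1:211579162-211579321, minus strand. Capitals mark the core of the metal response element, searched as TGCACNC or TGCGCNC on both strands.
MT2A: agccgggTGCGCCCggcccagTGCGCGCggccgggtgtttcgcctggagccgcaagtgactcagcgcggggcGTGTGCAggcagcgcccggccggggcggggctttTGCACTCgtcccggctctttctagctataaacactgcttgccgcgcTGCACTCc
MT1X: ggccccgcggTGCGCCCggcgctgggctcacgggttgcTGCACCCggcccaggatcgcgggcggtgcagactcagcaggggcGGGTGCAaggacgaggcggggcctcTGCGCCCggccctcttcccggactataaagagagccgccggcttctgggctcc
SLC30A1: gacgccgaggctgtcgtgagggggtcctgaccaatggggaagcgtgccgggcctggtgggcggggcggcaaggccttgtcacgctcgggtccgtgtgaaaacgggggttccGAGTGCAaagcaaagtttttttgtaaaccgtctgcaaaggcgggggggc
In the 250 bases before the start, the core was found 7 times for MT2A, 4 times for MT1X and 1 time for SLC30A1. Of 2 zinc importers also searched, SLC39A10, with a log2 change of 0.40 that was -0.02 without the trend, had 0 matches at both of its starts, and SLC39A8, at -0.31, had 0, 0 and 1 at its 3 starts. At least 1 match was present in 24.8% and at least 3 in 1.58% of the 35116 promoter windows. MT1A, MT1E, MT1F, MT1G, MT1L, MT1M, MT3 and SLC39A14 had no window in the promoter set. MT1L, which fell, and MT1M and MT1A, which did not pass, could thus not be set beside the 3. As the 3 genes are shown for holding the core, its presence in them is not a result. These matches are letters in the reference, and binding was not measured.

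Proliferation and growth genes shifted by smaller amounts. Of 36 S phase genes, 22 (61.1%) were higher and 3 lower (median 0.31), and of 28 mitosis genes, 18 (64.3%) and 2 (median 0.27). Among all protein-coding genes tested, 47.0% were higher and 24.7% lower. Median-of-ratios scaling gave 21 higher and 8 lower S phase genes (median 0.17) and 13 and 6 mitosis genes (median 0.13). CCNE2, a G1/S cyclin, rose from 51.2 to 122 TPM (1.25), and MKI67, the proliferation marker, from 186 to 328 TPM (0.82), but CCNE2 did not pass in the fit of all 12 libraries (adjusted p = 0.0781). In the fit of all 12 libraries, 2 mitosis genes and 7 S phase genes were higher. Of 23 p53 target genes, 15 were lower and 3 higher (median -0.40). PHLDA3, a repressor of AKT, fell from 23.3 to 7.75 TPM (-1.47) and GDF15, a stress cytokine, from 92.4 to 30.3 TPM (-1.58), while CDKN1A, the p21 inhibitor, was 338 and 346 TPM and did not pass. CDKN1A did pass under other settings and in both directions, as higher with the trend removed (0.38, adjusted p = 0.000369) and under quantile scaling (0.093, adjusted p = 0.0337) and as lower under median-of-ratios scaling (-0.11, adjusted p = 0.0417). Of 30 cytosolic ribosomal protein genes, 25 were lower, none of them 2-fold, and none higher (median -0.38), and 21 and 1 after the trend was removed. The fit of all 12 libraries left 9 of them lower.

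**Figure D5:**
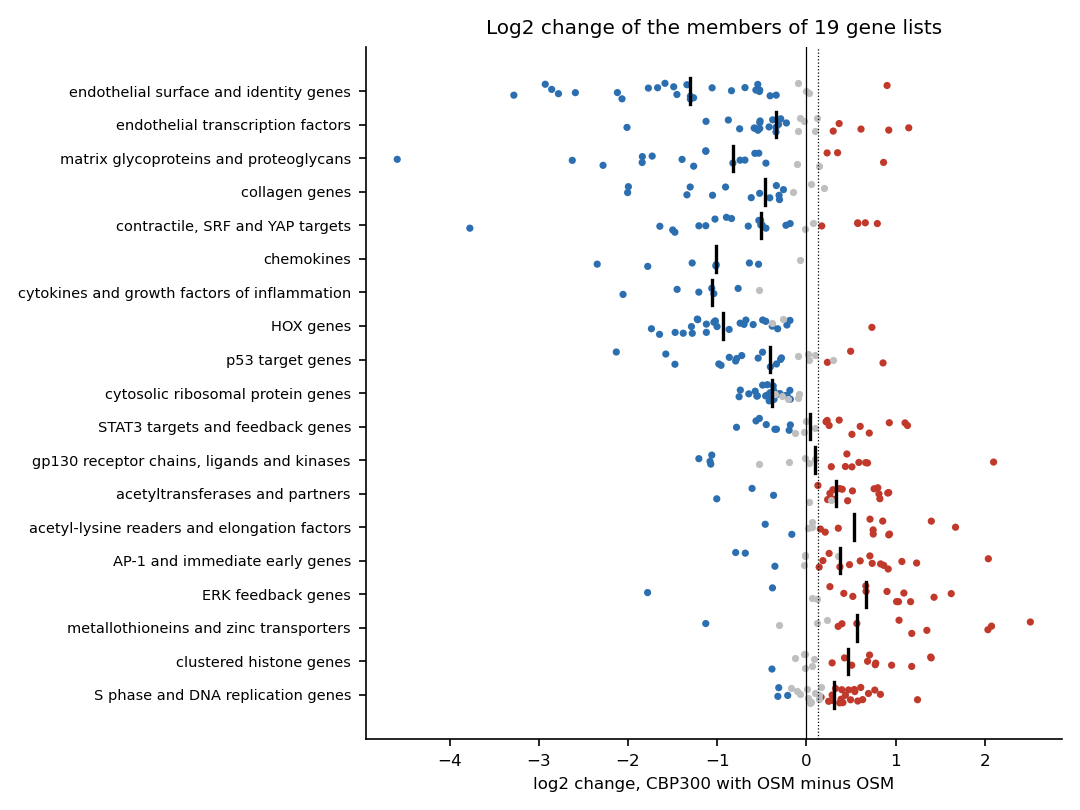
Each point is the log2 change of 1 gene in 19 lists, red or blue where it passed an adjusted p of 0.05 and grey where it did not, and the bar is the list's median. The dotted line is the median of all tested genes, 0.13, and the medians run from -1.30 for endothelial surface genes to 0.67 for ERK feedback genes.

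PF9363, an inhibitor of the acetyltransferases KAT6A and KAT6B, was given with the same cytokine, at 30 µg/mL against 10 µg/mL for CBP300. The doses differ, and the difference between the groups was tested in a fit of these 6 libraries over the same 15676 genes, of which 51.1% were higher and 13.2% lower with CBP300. Values are given for 12 genes picked after the comparison with OSM was known, and no other scaling was tried for this comparison. The same 3 CBP300 libraries enter both comparisons, so the comparisons are not independent. The differences are from 0 and are not set against the median difference of all genes. EDN1 measured 42.4, 43.3 and 29.1 TPM with PF9363, and the difference, CBP300 minus PF9363, was -2.86 ± 0.17 (SE, adjusted p = 7.66e-05). VWF measured 14.4, 16.9 and 10.6 TPM with PF9363, a difference of -3.02 ± 0.18 (SE, adjusted p = 7.3e-05). TAGLN measured 77.7, 79.3 and 101 TPM, a difference of -4.05 ± 0.13 (SE, adjusted p = 3.36e-05). In all 3 genes every CBP300 value lay below every PF9363 value. MGP, STAB1, LIPG and CDH5 were also lower with CBP300, by differences of -2.72, -2.48, -2.47 and -1.06. MT1X measured 10.3, 11 and 15.8 TPM with PF9363, a difference of 2.88 ± 0.17 (SE, adjusted p = 6.79e-05), and FOS 12.7, 12 and 9.83 TPM, a difference of 1.59 ± 0.12 (SE, adjusted p = 0.000123). SLC30A1 and LIFR were higher with CBP300 too, by 1.72 and 1.13. The call for LIFR was lost without CBP300 replicate 1 or 2 (adjusted p of 0.0544 and 0.0601). HEXIM1 lay above its OSM values in both groups. It measured 262, 261 and 218 TPM with PF9363, and the difference of -0.27 ± 0.10 (SE, adjusted p = 0.0438) did not pass when 1 of 5 of the 6 libraries was left out (adjusted p of 0.0949 to 0.133).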

How the data were processed

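Messenger RNA of 12 HMEC-1 libraries was measured, of which the 6 of OSM and CBP300 make the main comparison. Stranded poly(A) libraries were read as 150 bp pairs, per the labels' protocols. The deposited table holds 1 TPM value per gene and library, which the authors computed. Trimmomatic 0.40, Bowtie2, RSEM 1.3.3 and GRCh38 are named in the submitters' processing notes. Their roles, the annotation release and any filter are not given in the sources used here. Gene types, positions and GC content came from GENCODE release 29, which held 15588 of the 15676 tested genes, and symbols from a name table that covered 99.5% of all IDs.

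TPM values are not counts. Low values were whole multiples of 1 read over a fixed gene length, and whole reads (tolerance 0.001) were recovered for all 28351 genes above 0 in at least 2 libraries, in all OSM and CBP300 libraries. Depth was summed from them, and voom on these reads served as an alternative. The main test was limma 3.58.1 (R 4.3.3) on log2(TPM + 1) of the 6 libraries, with the variance prior following mean level (limma-trend), Benjamini-Hochberg adjustment over all 15676 genes and a threshold of 0.05. Replicate numbers did not pair the libraries (correlations of same-numbered deviations 0.0267, -0.0267 and 0.0838). The 51 gene lists hold 1017 symbols, of which 2 were not found. Members, lists and named genes were chosen with earlier results of these data known. Named genes were the 12 highest and 12 lowest changes among called genes of at least 5 TPM without overlap, passing over clone names, plus list members and 14 genes always kept. The main fit was also run on simulated counts with few changed genes and no GC trend. That run does not bear on how these data depend on scaling or GC content. Alternatives were pseudocounts of 0.1 and 5 TPM, other filters, scalings and moderation, removal of mitochondrial genes, a replicate block, removal of the GC and length trend, voom, a fit of all 12 libraries and leaving out each library. Promoters came from RefSeq (GRCh38.p14). Some genes counted in the lists are not reported here one by one. Plots used Python and matplotlib.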

Additional observations from a re-analysis of the deposited data

How the results depend on the processing

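The fit of all 12 libraries gave 2403 higher and 2205 lower genes. Genes at least 2-fold higher numbered 896 and 178 with pseudocounts of 0.1 and 5 TPM and 362 under median-of-ratios scaling. Genes at least 2-fold lower numbered 248 with a pseudocount of 5 TPM and 1165 by voom on recovered reads. Leaving out each library in turn gave 5493 to 6456 higher, 3265 to 3671 lower, 494 to 796 at least 2-fold higher and 621 to 652 at least 2-fold lower genes. With the replicate block there were 6180 higher, 3613 lower, 593 at least 2-fold higher and 633 at least 2-fold lower genes, and the shared numbers did not pair the libraries. The other alternatives kept all 4 counts within 1.5 times.

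Of 135 called genes named above, 26 lost the call in at least 1 of 18 alternatives, most of them in the fit of all 12 libraries, and 1 of them, ID1, when a library was left out. Log2 changes reversed, without the trend, for CD55 (-0.050), HOXA7 (0.15), IL6ST (-0.013) and SLC39A10 (-0.025), and under median-of-ratios scaling for ID1 (-0.024). Genes that had not passed in the comparison reported also reversed under scaling or voom: CDKN1A (-0.11 and -0.081), DLL4 (-0.12, -0.058 and -0.10), MT1M (-0.0045 and -0.14) and THBD (-0.11, -0.12 and -0.078). Leaving out 1 library at a time gave -0.029 to 0.055 for DLL4, -0.049 to 0.061 for KDR and -0.085 to 0.25 for MT1M. The 12 differences from PF9363 kept their direction with other pseudocounts, a replicate block and each library left out, alternatives chosen after the data were seen. The HEXIM1 difference did not pass with the replicate block (adjusted p = 0.0523 by limma). Other scalings, removal of the trend and voom were not run for the comparison with PF9363. Genes with few reads, such as the small RNA genes, limit what the highest changes can show.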

Other observations

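The libraries given PF9363 showed an irregularity in the deposited table. Of 28351 genes above 0 in at least 2 libraries, all had values equal to whole reads within a tolerance of 0.001, except 5 genes in the 3 PF9363 columns. These were ICAM1, HIF1A, VEGFA, SNAI1 and IL6, with 14 values that were not whole. The same columns summed to 397, 430 and 178 TPM less than 1000000, whereas the other 9 reached that total. The cause was not tested. The values of these 5 genes in the OSM and CBP300 libraries were whole, and no PF9363 level of them is given here, although their values remained in the fits that included those libraries.

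HBB differed among libraries of the same group also in the control, with 0.244, 40.6 and 0.35 TPM, and was at 0 TPM with PF9363. These values were picked out after they were seen.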
